A study of Rattus norvegicus and Mus musculus with 18 samples.

Results

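Heparan sulfate proteoglycans and the enzymes that build and edit their sugar chains were followed through the tissues of the embryonic kidney. The set held 33 genes: 12 core proteins, 6 genes of chain synthesis, 13 sulfotransferases and 2 sulfatases. A probe set, the group of short probes that reports 1 transcript on an Affymetrix array, was taken when its annotation named 1 of these genes and no other. On the mouse array this gave 73 of 45037 probe sets, for 32 of the 33 genes, and mouse Ndst1 was not analysed here. The rat arrays carried 18 of 8740 probe sets on the first design, 15 of 8732 on design B and 5 of 8730 on design C, together for 23 of the genes.

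Heparan sulfate is a long sugar chain attached to a core protein, which either spans the cell membrane (syndecans), is anchored to it by a lipid (glypicans), or lies in the basement membrane (perlecan and agrin). The chain is polymerised in the Golgi and then modified by an epimerase and by N-, 2-O-, 6-O- and 3-O-sulfotransferases, and outside the cell the sulfatases Sulf1 and Sulf2 remove 6-O-sulfate groups again. The resulting sulfation pattern sets how the chain binds growth factors such as GDNF, FGFs and Wnts, which steer branching of the ureteric bud, and mice that lack the 2-O-sulfotransferase Hs2st1 or the epimerase Glce form no kidneys.

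The series compared the parts of the metanephric kidney on 18 arrays. In mouse, ureteric bud tips, ureteric bud stalks and metanephric mesenchyme were dissected at embryonic stage E12.5, from pools of about 1000 tips, 350 stalks and 300 mesenchymes. In rat, whole ureteric buds and metanephric mesenchyme were dissected at E13.5, from pools of about 1200 buds and 240 mesenchymes, and each RNA was hybridised to all 3 rat designs. No strain, genotype or treatment other than the DNase and trypsin digestion shared by all tissues is given in the labels. Every tissue and design had 2 arrays, which were 2 labelings of 1 pooled RNA. The p-values therefore measure the spread of labelling and hybridisation only, and not the spread between animals. In such bulk tissue, fewer cells of a type and less RNA per cell cannot be told apart.

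Markers of several cell types were set beside the labels. The summed intensity of 19 ureteric bud epithelium markers was 38522 to 39375 in the mouse tip arrays, 21650 to 22027 in the stalk arrays and 1262 to 1327 in the mesenchyme arrays. For 15 stroma markers the sums were 3958 to 4135 in tips, 26350 to 26716 in stalks and 23856 to 24813 in mesenchyme, so the stalk pool carried stroma transcripts as well as epithelial ones. The 11 nephron progenitor markers summed to 1068 to 1233 in tips, 3301 to 3373 in stalks and 9112 to 9155 in mesenchyme, and 10 endothelium markers to 1211 to 1317 in tips, 2310 to 2417 in stalks and 3467 to 3554 in mesenchyme. The sums of erythroid, macrophage and neuronal markers were likewise lowest in tips and highest in mesenchyme. Erythroid markers, for example, summed to 8749 to 9289 in tips, 16521 to 16586 in stalks and 22105 to 22415 in mesenchyme. The lowest deposited mouse intensity was 5.3, so no marker could be at 0. Some markers lay below 49.3, the filter on low signal used below. These were 9 of the 19 epithelium markers in each mesenchyme array, and 2 and 3 of the 15 stroma markers in the tip arrays, among others. These sums differ between the same tissues that are compared for the heparan sulfate genes, and their part in those differences was not tested.

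A difference was called when it was at least 2-fold and had a limma adjusted p under 0.05 over all tested probe sets, on a log2(intensity + 16) scale that understates changes of weak signals. Of the 32 mouse genes, 27 passed the filter on low signal, and 5 stayed below it in all 3 tissues. These were the glypican Gpc5, with 8.53 to 12.2 over the 6 arrays, Extl1 with 24.1 to 28.1, Ndst3 with 19.7 to 24.6, Ndst4 with 29.8 to 39.4 and Hs6st3 with 24.4 to 41.5. In tips against stalks, 1 of the 27 genes was called higher and 3 were called lower, while 5.33% of all 12354 tested genes were called in either direction, 1.16% higher and 4.18% lower. In tips against mesenchyme 3 were called higher and 4 lower, against 9.71% of all tested genes, 4.65% higher and 5.05% lower. In stalks against mesenchyme 1 gene was called higher and 0 lower by limma, 16 of the 27 having an unadjusted p under 0.05, and 3.5% of all tested genes were called, 2.94% higher and 0.559% lower. The median log2 difference of the 27 genes was -0.03 in tips against stalks, -0.01 in tips against mesenchyme and 0.10 in stalks against mesenchyme, and over all tested genes it was 0.06, 0.01 and -0.05. At any fold, 14, 12 and 11 of the 27 genes had an adjusted p under 0.05 in these comparisons, beside 33.1%, 38.5% and 15.6% of all tested genes. For an unadjusted p under 0.05 the share of all tested genes was not counted. Counts at that limit, here and below, are therefore descriptions and show no excess.

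**Figure D1:**
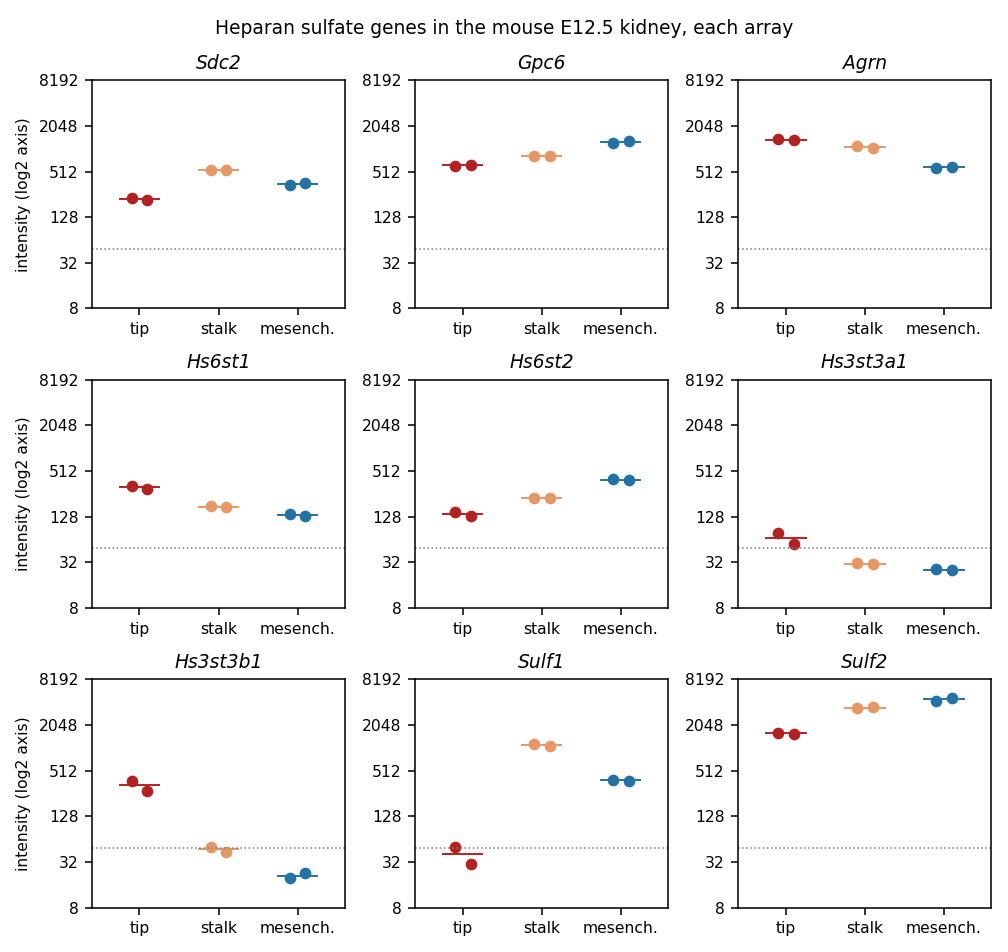
Intensity (log2 axis) of 9 mouse heparan sulfate genes, the 8 called in at least 1 comparison and Hs3st3a1, with 1 point per array and a bar at the mean for tips, stalks and mesenchyme. The dotted line marks the filter at an intensity of 49.3. Sulf1 lies at 50.3 and 30.3 in tips and above 1000 in both stalk arrays, while Hs3st3b1 reads 380 and 276 in tips and at most 50 in the other arrays.

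Among the core proteins, 11 of 12 were tested and the calls fell on 3 genes: the syndecan Sdc2, the glypican Gpc6 and the basement membrane protein agrin. Sdc2 was called lower in tips than in stalks, agrin was called higher and Gpc6 lower in tips than in mesenchyme, and 0 core proteins were called between stalks and mesenchyme, although 6 of the 11 had an adjusted p under 0.05 there without reaching 2-fold.

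Sdc2, a transmembrane syndecan, had intensities of 227 and 219 in the tip arrays, 536 and 530 in the stalk arrays and 340 and 362 in the mesenchyme arrays. Both stalk arrays lay above all others, and both tip arrays below. The log2 difference of tips minus stalks was -1.20 (SE 0.07, limma adjusted p = 4.38e-06), and the smaller differences of tips minus mesenchyme (-0.62) and stalks minus mesenchyme (0.58) had adjusted p of 0.000154 and 0.000598. The other syndecans moved less. Sdc4 was higher in stalks than in mesenchyme by 0.46 (adjusted p = 0.00696), and the probe sets that represent Sdc1 and Sdc3 had no adjusted p under 0.05, the difference of largest size being -0.22, for Sdc3 in stalks minus mesenchyme.

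Agrn encodes agrin, a large proteoglycan of basement membranes. Its intensities were 1374 and 1322 in tips, 1105 and 1054 in stalks and 574 and 585 in mesenchyme. The groups were separate in all 3 pairings, with tips above stalks and stalks above mesenchyme. Tips minus mesenchyme was 1.20 (SE 0.05, limma adjusted p = 2.4e-07), stalks minus mesenchyme 0.88 (adjusted p = 5.34e-06) and tips minus stalks 0.32 (adjusted p = 0.00148). Perlecan (Hspg2), the other basement membrane core protein, had 356 and 602 in tips, 347 and 390 in stalks and 372 and 580 in mesenchyme. Labelings of the same tip RNA, and of the same mesenchyme RNA, differed more than the tissues did, and no comparison passed the test with this probe set.

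Gpc6, a glypican, ran the other way from agrin. Its intensities were 610 and 620 in tips, 825 and 832 in stalks and 1235 and 1306 in mesenchyme. No tissue overlapped another. Tips minus mesenchyme was -1.03 (SE 0.05, limma adjusted p = 6.26e-07), close to the 2-fold limit, and it became -0.98 without the second mesenchyme array, which ends the call, as does a pseudocount of 64 (also -0.98). Stalks minus mesenchyme was -0.61 (adjusted p = 5.48e-05).

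Gpc3, whose loss causes kidney overgrowth in mouse and human, had intensities of 2615 and 2684 in tips, 3151 and 3336 in stalks and 2728 and 2907 in mesenchyme. Tips minus stalks was -0.29 (adjusted p = 0.00186) and tips minus mesenchyme -0.09 (SE 0.05, adjusted p = 0.198). Gpc4 had a stalk excess of similar kind, with 85.2 and 90.8 in tips, 126 and 130 in stalks and 81.5 and 94.1 in mesenchyme. Its tip minus stalk difference was -0.47 (adjusted p = 0.0232) and its tip minus mesenchyme difference 0.01. A second Gpc4 probe set gave -0.25 in tips minus stalks, which did not pass (limma adjusted p = 0.232). For Gpc1 tips minus stalks was -0.24 (adjusted p = 0.0297), and Gpc2 did not pass in any mouse comparison.

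**Figure D2:**
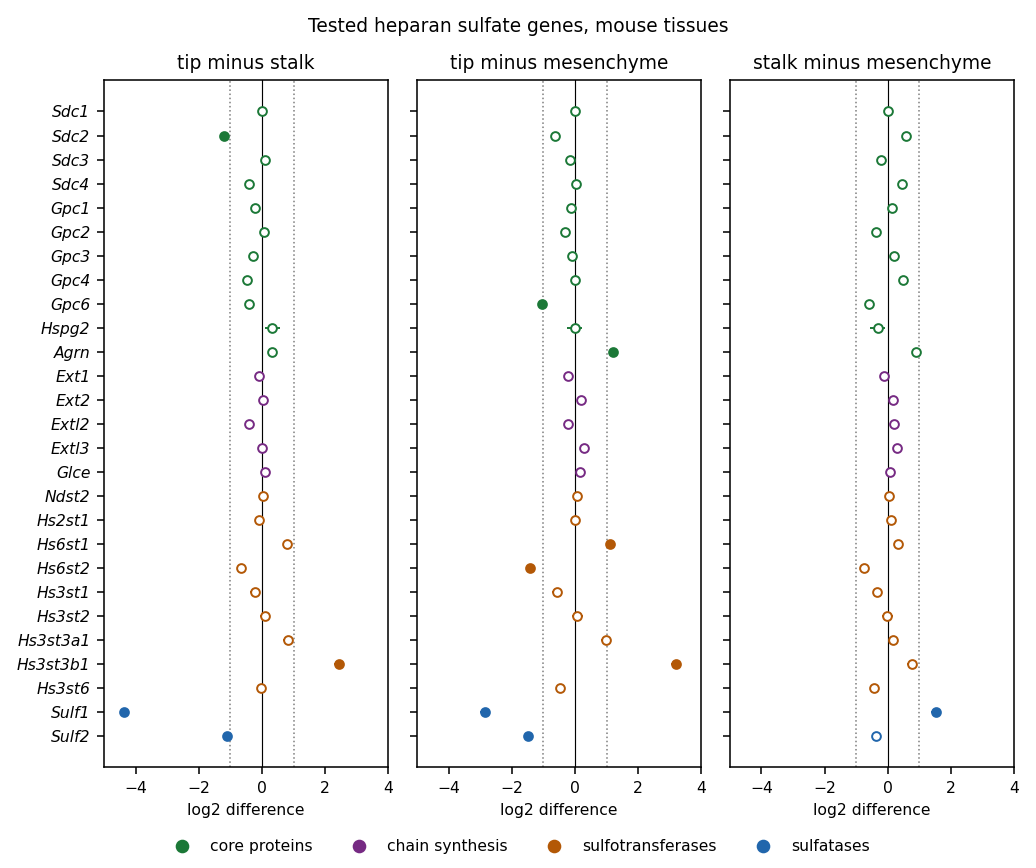
Log2 differences of the tested mouse heparan sulfate genes in the 3 comparisons, ordered by role, with SE bars, filled points for called genes and open points for the others. Dotted vertical lines mark 2-fold. Most points lie between these lines, and Sulf1, at -4.36 in tips minus stalks, and Hs3st3b1, at 3.20 in tips minus mesenchyme, lie farthest out.

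The chain synthesis genes differed little among the mouse tissues, and 0 of the 5 tested were called in any of the 3 comparisons by limma. Those with an unadjusted p under 0.05 numbered 1 in tips against stalks, 4 in tips against mesenchyme and 2 in stalks against mesenchyme. Ext1 and Ext2 form the polymerase that elongates the chain. Ext2 had 504 and 595 in tips, 516 and 548 in stalks and 463 and 485 in mesenchyme, and Ext1 had 458 and 405 in tips, 460 and 453 in stalks and 509 and 489 in mesenchyme. The arrays of tips and stalks overlapped for both genes. Extl2, a transferase that acts on the linkage region, had a tip minus stalk difference of -0.41 (adjusted p = 0.0039). Its second probe set gave -0.28, which did not pass (limma adjusted p = 0.0688). Extl3, which starts the chain, was higher in tips than in mesenchyme by 0.28 (adjusted p = 0.0432). Glce, the epimerase that turns glucuronic into iduronic acid, had 431 and 383 in tips, 387 and 378 in stalks and 351 and 371 in mesenchyme, and tips minus mesenchyme was 0.16 (SE 0.08, adjusted p = 0.143).

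Of the 12 sulfotransferases on the mouse array, 9 were tested. Hs3st3b1 was called higher in tips than in both other tissues, and in tips against mesenchyme Hs6st1 was called higher and Hs6st2 lower. No sulfotransferase was called between stalks and mesenchyme, where 5 of the 9 had an unadjusted p under 0.05.

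Hs3st3b1 places the rare 3-O-sulfate, which few proteins recognise. Its intensities were 380 and 276 in tips, 50 and 43.6 in stalks and 19.4 and 22.7 in mesenchyme. The tip arrays lay far above the rest, although they differed from each other. Tips minus stalks was 2.44 (SE 0.17, limma adjusted p = 1.33e-05), tips minus mesenchyme 3.20 (adjusted p = 1.17e-06) and stalks minus mesenchyme 0.76 (adjusted p = 0.0187). The related Hs3st3a1 had 78 and 55.9 in tips, 31.2 and 30.3 in stalks and 26.3 and 25.1 in mesenchyme. It was higher in tips by 0.81 against stalks (adjusted p = 0.00449) and by 0.98 against mesenchyme (adjusted p = 0.00119), both short of 2-fold, and without the second tip array these became 1.03 and 1.19, past it, as with a pseudocount of 1 (1.08 and 1.33). Both genes passed the filter through their tip signal alone, so that a tested difference could only run towards tips. In the rat genome annotation (RefSeq, GRCr8) they lie near each other on chromosome 10, with 1 protein-coding gene between them.

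The 6-O-sulfotransferases add the sulfate groups that the sulfatases remove. Hs6st1 had 322 and 300 in tips, 177 and 172 in stalks and 140 and 133 in mesenchyme, and Hs6st2 had 146 and 131 in tips, 226 and 227 in stalks and 405 and 386 in mesenchyme. The order of the tissues was thus opposite in these related enzymes, and no tissue overlapped another in either. Tips minus mesenchyme was 1.10 for Hs6st1 (SE 0.09, limma adjusted p = 2.62e-05) and -1.41 for Hs6st2 (SE 0.09, adjusted p = 3.79e-06). With a pseudocount of 64 the Hs6st1 difference was 0.90, under 2-fold. Against stalks, tips differed by 0.78 for Hs6st1 (adjusted p = 0.000372) and by -0.65 for Hs6st2 (adjusted p = 0.000798).

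Hs2st1, the 2-O-sulfotransferase, had 714 and 717 in tips, 784 and 764 in stalks and 702 and 736 in mesenchyme, and tips minus mesenchyme was -0.01 (SE 0.05, adjusted p = 0.944). Ndst2, an N-deacetylase and N-sulfotransferase, had intensities between 162 and 180 in all 6 arrays and passed no test. Tips minus mesenchyme was -0.58 for Hs3st1 (adjusted p = 0.0126) and -0.48 for Hs3st6 (adjusted p = 0.0139), both under 2-fold. Hs3st2 had 164 and 227 in tips, 167 and 194 in stalks and 160 and 207 in mesenchyme, with a larger spread between labelings than between tissues.

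Both sulfatases were called lower in tips than in each of the other tissues. Sulf1 had 50.3 and 30.3 in tips, 1143 and 1102 in stalks and 389 and 375 in mesenchyme, and the tip mean of 40.3 lay below the filter threshold of 49.3. Tips minus stalks was -4.36 (SE 0.15, limma adjusted p = 1.72e-07) and tips minus mesenchyme -2.84 (adjusted p = 1.01e-06). Sulf1 passed the filter through stalks and mesenchyme and not through tips, so a tested tip difference could only run lower in tips. Both calls held at every pseudocount tried, but with a tip signal this low the size depended on it. Tips minus stalks was -4.81 with a pseudocount of 1 and -3.51 with 64, and tips minus mesenchyme -3.26 and -2.10. Within the listed set, Sulf1 was also the only gene called between stalks and mesenchyme, higher in stalks by 1.52 (SE 0.15, adjusted p = 0.000162). Of the 15 stroma markers, 14 were called lower in tips than in stalks, all 15 lower in tips than in mesenchyme, and 3 were called higher and 2 lower in stalks than in mesenchyme.

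Sulf2 had 1608 and 1574 in tips, 3417 and 3503 in stalks and 4290 and 4721 in mesenchyme. The tissues did not overlap, and unlike Sulf1 the stalk arrays lay below those of mesenchyme. Tips minus stalks was -1.11 (SE 0.05, limma adjusted p = 8.92e-07), tips minus mesenchyme -1.49 (adjusted p = 6.97e-08) and stalks minus mesenchyme -0.38 (adjusted p = 0.00104).

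Several genes were read by more than 1 probe set, and not all of these gave the same result. For Sulf1 a second probe set gave -4.35 in tips minus stalks, -3.01 in tips minus mesenchyme and 1.34 in stalks minus mesenchyme, all called, and the third read 13.6 to 17.1 in every array. For Sdc2 the other tested probe sets gave -1.22 and -1.09 in tips minus stalks, both called. For Hs6st2 a second probe set, with means of 23.2 in tips, 43.4 in stalks and 71.8 in mesenchyme, gave -1.17 in tips minus mesenchyme. It passed the filter through mesenchyme alone, so its difference could only run that way. The second Sulf1 probe set, too, passed the filter without tips, so its tip differences could only be negative. The repeats of Sulf1 and Sdc2 were of the same RNA and do not add samples.

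In other genes the probe sets parted. A second Sulf2 probe set gave -1.02 and -1.49 against stalks and mesenchyme, while the third read 660 and 723 in tips, 537 and 500 in stalks and 485 and 493 in mesenchyme, the reverse order, with differences of 0.40 and 0.49 (adjusted p = 0.00201 and 0.000475). The other tested Hs3st3b1 probe sets gave 0.46 and 0.49 in tips minus stalks and 0.67 and 0.61 in tips minus mesenchyme, the same direction below 2-fold. The one with 0.49 and 0.61 passed the filter through tips alone, so its differences could only run that way. For Gpc6 the 4 other probe sets ranged from -0.43 to 0.11 in tips minus mesenchyme, and none was called. A second Hspg2 probe set read 222 and 212 in tips, 150 and 170 in stalks and 109 and 122 in mesenchyme, with tips above mesenchyme by 0.82 (adjusted p = 0.000521). Another Sdc1 probe set had 520 and 519 in tips, 424 and 412 in stalks and 389 and 428 in mesenchyme, higher in tips by 0.30 and 0.34 (adjusted p = 0.0093 and 0.00438), where the representative one differed by -0.01 and 0.00. A second Sdc4 probe set also placed tips above mesenchyme, by 0.67 (adjusted p = 0.000544), where the representative one gave 0.05. Another Hs2st1 probe set placed tips above stalks by 0.41 (adjusted p = 0.0385), where the representative one gave -0.11 (adjusted p = 0.144). When all probe sets of a gene were averaged, the log2 differences fell below 2-fold, with an adjusted p still under 0.05, for Sdc2 (-0.89), Hs3st3b1 (0.86) and Sulf2 (-0.58) in tips minus stalks, for Agrn (0.73), Gpc6 (-0.39), Hs6st2 (-0.68) and Sulf2 (-0.83) in tips minus mesenchyme, and for Sulf1 (0.94) in stalks minus mesenchyme. Which transcripts these probe sets match was not examined.

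**Figure D3:**
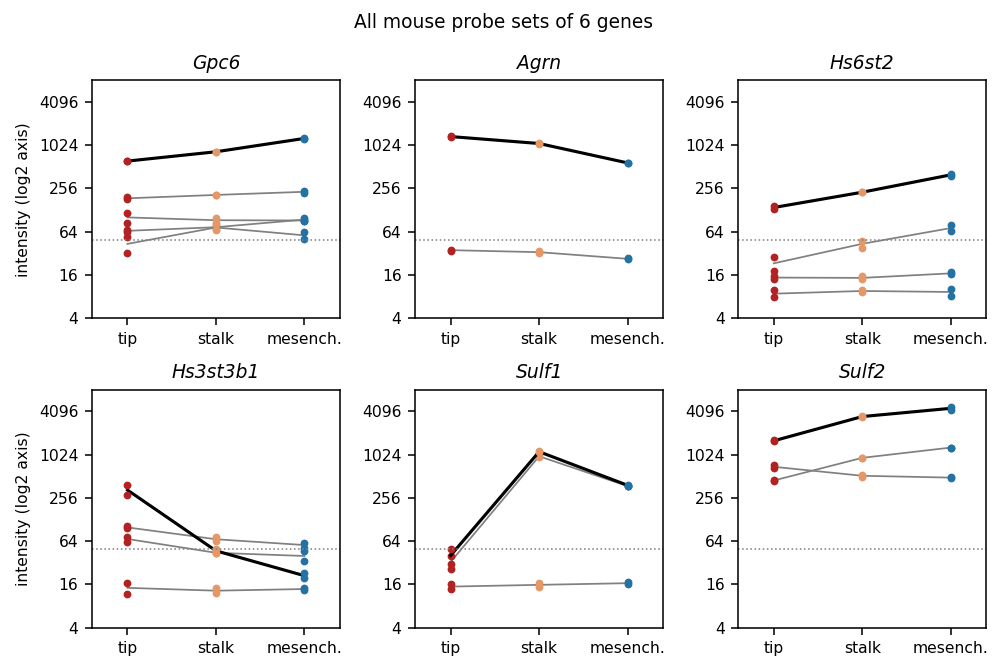
Intensity (log2 axis) of all probe sets of 6 mouse heparan sulfate genes in tips, stalks and mesenchyme, with 1 point per array and lines through the means. The black line is the probe set that represents the gene, grey lines are its other probe sets, and the dotted line marks the filter at 49.3. A pair of Sulf1 lines run together, the Sulf2 lines cross, and the lower Gpc6 and Hs3st3b1 lines are flatter than the black ones.

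On the rat arrays 20 of the 23 genes present were tested on at least 1 design. The second bud labeling stood apart: its Gapdh control had a 3' to 5' signal ratio of 4.43 on the first design, 5.28 on B and 4.26 on C, against 1.25 to 1.47 on all other rat arrays and 0.903 to 1.01 on the mouse arrays. The called rat differences named in the text are given with and without it. Leaving it out keeps 1 bud array per design. The spread then comes from the mesenchyme labelings alone, so a call made or kept that way measures no spread of buds. On the first design 1 of 11 tested genes was called higher in buds than in mesenchyme and 0 lower, against 5.83% of all tested genes (3.23% higher, 2.6% lower). On design B it was 1 of 10 higher and 0 lower, against 5.39% (3.2% higher, 2.19% lower), and on design C 1 of 5 higher and 0 lower, against 4% (2.22% higher, 1.78% lower). The median log2 differences of the tested heparan sulfate genes were -0.13, 0.01 and 0.09, and those of all tested genes 0.03, 0.01 and 0.01. For the directions with 0 calls by limma, the genes with an unadjusted p under 0.05 in either direction numbered 4, 3 and 2. At any fold 2, 2 and 1 of the genes had an adjusted p under 0.05, beside 11.7%, 17.3% and 10.7% of all tested genes.

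The called rat genes were the glypicans Gpc6 and Gpc4 and the epimerase Glce, all higher in buds. Gpc6 had 549 and 601 in buds and 182 and 163 in mesenchyme on the first design, and the tissues did not overlap. Bud minus mesenchyme was 1.65 (SE 0.13, limma adjusted p = 0.000512), and 1.57, still called, without the second bud labeling. A second Gpc6 probe set, on design C, had 244 and 181 in buds and 155 and 144 in mesenchyme. Its difference of 0.45 did not pass (adjusted p = 0.14), and without the second bud labeling it was 0.64, under 2-fold.

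Gpc4 had 212 and 204 in buds and 71.7 and 68.4 in mesenchyme on design C, a difference of 1.38 (SE 0.10, limma adjusted p = 0.00199). Without the second bud labeling it was 1.40. Without either mesenchyme array the size was similar, 1.42 and 1.35, but the adjusted p was 0.0506 and 0.0518, which ends the call. Glce had 260 and 270 in buds and 99.5 and 101 in mesenchyme on design B, a difference of 1.28 (SE 0.10, limma adjusted p = 0.000864), and 1.24, still called, without the second bud labeling. In both genes every bud array lay above every mesenchyme array. Their mesenchyme means, 70.1 for Gpc4 and 100.1 for Glce, lay below the filters of 115 on design C and 118 on design B. Both thus passed the filter through their bud signal alone, and a tested difference could only run towards buds.

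The promoters of Glce and Gpc4, the called rat genes with an entry in the table of rat promoters, are shown because both genes were higher in buds. They span 250 bases before to 50 after the annotated start (RefSeq, GRCr8), at chr8:71507538-71507837 and chrX:136676008-136676307, both on the minus strand. Capitals mark matches on either strand to 4 motifs that were searched: a TFAP2 motif (GCCNNNGGC), a GATA motif (AGATAA), an ETS motif (CCGGAAG) and a GC box (GGGCGG).
Glce: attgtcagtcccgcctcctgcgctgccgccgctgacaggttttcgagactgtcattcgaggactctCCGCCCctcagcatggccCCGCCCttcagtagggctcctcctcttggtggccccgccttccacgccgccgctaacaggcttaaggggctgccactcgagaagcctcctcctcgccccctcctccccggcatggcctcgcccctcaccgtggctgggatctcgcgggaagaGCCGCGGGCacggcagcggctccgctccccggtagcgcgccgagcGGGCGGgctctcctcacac
Gpc4: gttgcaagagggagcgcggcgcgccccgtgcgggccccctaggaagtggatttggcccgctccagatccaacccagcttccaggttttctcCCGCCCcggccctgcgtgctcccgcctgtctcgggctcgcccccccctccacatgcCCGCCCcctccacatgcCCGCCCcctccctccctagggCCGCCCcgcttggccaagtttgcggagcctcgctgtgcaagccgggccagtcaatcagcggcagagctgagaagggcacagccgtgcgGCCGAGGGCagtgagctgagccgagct
Glce held 1 TFAP2 match, 3 GC boxes and no GATA or ETS match, and Gpc4 held 1 TFAP2 match, 4 GC boxes and no GATA or ETS match, with 0 overlaps between motifs. Over all 33469 rat promoters of that length the shares with a match were 15.1% for TFAP2, 11.6% for GATA, 8.75% for ETS and 33.1% for the GC box. Among the 25 heparan sulfate genes with an entry, 10 had a TFAP2 match, 1 a GATA match, 0 an ETS match and 17 a GC box. The promoters had a G and C content of 70.3% (Glce) and 71.3% (Gpc4), with 30 and 25 CpG pairs. These matches are a description of letters and not of binding.

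The remaining rat genes differed less. Agrn had 1030 and 1138 in buds and 632 and 620 in mesenchyme, higher in buds by 0.77 (SE 0.13, adjusted p = 0.0112) and by 0.69 without the second bud labeling. Its other probe set, with 952 and 1448 in buds and 536 and 491 in mesenchyme, gave 1.17 and was called (adjusted p = 0.0146). That call rested on the second bud labeling, without which it was 0.87, under 2-fold. Extl2 had 142 and 145 in buds and 196 and 242 in mesenchyme on design B, a difference of -0.55 (adjusted p = 0.0349). Gpc2, with 272 and 359 in buds and 468 and 545 in mesenchyme, had a difference of -0.67 that did not pass (adjusted p = 0.0554). Ndst1, measured in rat only, had 353 and 368 in buds and 368 and 381 in mesenchyme, a difference of -0.05 (SE 0.12, adjusted p = 0.857).

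The syndecans passed no test in rat. Sdc4 had 2025 and 2229 in buds and 1508 and 1618 in mesenchyme, apart in both labelings, with a difference of 0.44 (SE 0.13, adjusted p = 0.0763), and Sdc1 differed by -0.13. Sdc2 was measured on both the first design and design B, with differences of -0.37 and -0.31, and Sdc3 on the same designs with -0.24 and -0.32. Gpc3 had 1779 and 1960 in buds and 2097 and 2212 in mesenchyme on the first design (-0.20) and differed by 0.03 on design C. Other Gpc3 probe sets on the first design ran the opposite way, by 0.28 (adjusted p = 0.369) and, below the filter, by 0.37. The tested one passed the filter through buds alone, so its difference could only run towards buds. Hspg2 differed by 0.36 on design B and 0.07 on design C, Ext1 by 0.09 and Ext2 by 0.11, Ndst2 by 0.17 and Hs2st1 by -0.18, and all of these had an adjusted p above 0.05. Without the second bud labeling the differences were -0.85 for Gpc2, -0.57 for Sdc2 on the first design and 0.38 for Sdc4, all under 2-fold.

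**Figure D4:**
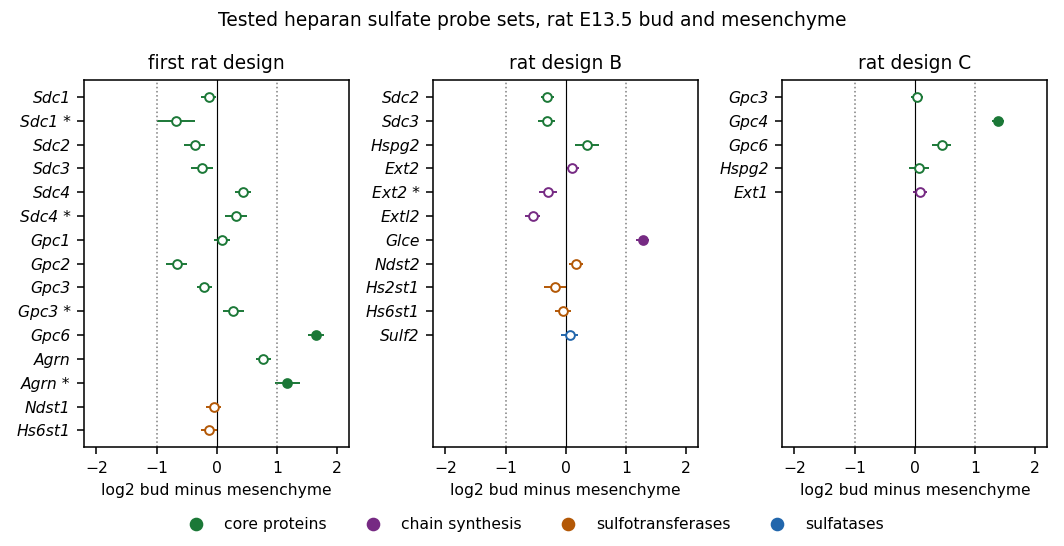
Log2 differences of bud minus mesenchyme for the tested heparan sulfate genes on the 3 rat designs, with SE bars, filled points where called and dotted lines at 2-fold. An asterisk marks a probe set other than the one that represents its gene. Gpc6 on the first design (1.65), Gpc4 (1.38) and Glce (1.28) lie past 2-fold, as does the second Agrn probe set (1.17).

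Markers were set beside the rat results as well. On the first design 10 ureteric bud epithelium markers summed to 6081 to 6086 in buds and 1206 to 1264 in mesenchyme, and 12 stroma markers to 1976 to 2298 in buds and 9299 to 10181 in mesenchyme. On design B 6 epithelium markers summed to 2833 to 3192 in buds and 649 to 696 in mesenchyme, and on design C 5 of them to 2992 to 3017 in buds and 313 to 349 in mesenchyme. Stroma markers were lower in buds on these designs too. The 6 on design C summed to 1846 to 2153 in buds and 2881 to 2918 in mesenchyme, limma calling 0 of them, with 5 at an unadjusted p under 0.05. The 1 on design B, which did not pass the filter, had 62 to 71.9 in buds and 116 to 118 in mesenchyme. The part of cell composition in the 3 called rat genes was not tested.

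Of the 19 genes tested in both species, in 25 pairs of measurements, 3 were called in rat and 4 in mouse tips against mesenchyme. These counts use the probe set that represents each gene. By these, only Gpc6 was called in both, in opposite directions. Rat buds were above mesenchyme by 1.65, and mouse tips minus mesenchyme was -1.03. No other mouse Gpc6 probe set was called. Agrn, called higher in mouse tips, was also called higher in rat buds by a second probe set. That rat difference was 1.17, or 0.87 without the second bud labeling. Glce was above mesenchyme by 1.28 in rat buds, with 0.16 in mouse tips and 0.08 in mouse stalks. Gpc4 was above it by 1.38 in rat buds, with 0.01 in mouse tips and 0.48 in mouse stalks. Sulf2, at -1.49 in mouse tips minus mesenchyme, had 1241 and 1443 in rat buds and 1258 and 1298 in rat mesenchyme, a difference of 0.07 (SE 0.14, adjusted p = 0.78), or -0.04 without the second bud labeling. Hs6st1, higher in mouse tips by 1.10, differed by -0.13 and -0.05 on the rat designs that carry it. Agrn was above mesenchyme with an adjusted p under 0.05 in mouse tips, mouse stalks and rat buds. The species were on different arrays with different probe sets, and they differed in stage and in how the bud was divided, so the difference between species was not tested. Sulf1, Hs6st2, Hs3st3a1 and Hs3st3b1, which carried mouse tip differences, were not measured on the rat designs used here.

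**Figure D5:**
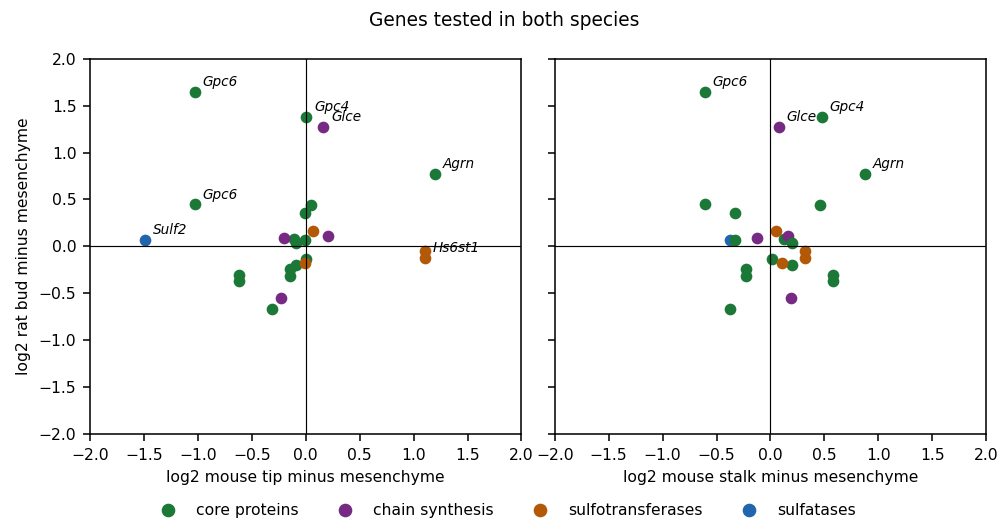
Log2 differences from mesenchyme in rat buds (vertical axis) and in mouse tips or mouse stalks (horizontal axes), for 25 pairs of measurements of 19 heparan sulfate genes. Genes with a difference of at least 0.7 in either species are named. Gpc6 lies in the corner with rat buds above and mouse tips below mesenchyme, and Agrn is above mesenchyme in both species.

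Genes around the pathway gave a background to these results. Over all tested mouse genes, 5.33% were called in tips against stalks, 9.71% in tips against mesenchyme and 3.5% in stalks against mesenchyme. Of 14 tested genes that build the linkage region or supply sugar and sulfate precursors, 0 were called by limma between tips and either other mouse tissue (6 and 7 had an unadjusted p under 0.05), and the sulfate transporter Slc26a2 was called higher in stalks than in mesenchyme by 1.02. Of 7 tested lysosomal enzymes that break the chain down, 0 were called in the 3 mouse comparisons by limma, and 2, 1 and 0 of them had an unadjusted p below 0.05. Their medians stayed between -0.13 and -0.01.

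Other genes of heparan sulfate moved more. Col18a1, a basement membrane collagen that carries heparan sulfate, was higher than in mesenchyme by 1.51 in mouse tips, 1.43 in mouse stalks and 1.10 in rat buds on design C (limma adjusted p = 8.01e-08, 3.92e-07 and 0.0167). Spock2, a secreted proteoglycan, was called lower than in mesenchyme in the same tissues, with differences of -2.10 in mouse tips, -1.42 in mouse stalks, and -2.18 and -3.87 in rat buds on the first design and design C. Without the second rat bud labeling the Spock2 differences were -2.23 and -3.88, still called, and that of Col18a1 was 0.90, under 2-fold, which ended its call. A second Spock2 probe set on design C was also called lower in buds, by a smaller difference of -1.55, or -1.58 without the second bud labeling. Cd44, which can carry heparan sulfate in some splice forms, was called lower in tips, at -1.16 against stalks and -1.86 against mesenchyme. These were the called genes among 6 tested in mouse. They numbered 1 in tips against stalks, 3 in tips against mesenchyme and 2 in stalks against mesenchyme. The shares of all tested genes called in these comparisons were 5.33%, 9.71% and 3.5%.

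The sister pathway of chondroitin and dermatan sulfate had 20 tested genes in mouse. In tips against stalks 0 were called higher and 4 lower, the proteoglycans Vcan (-3.63), Dcn (-2.37) and Bgn (-1.59) and the dermatan sulfate epimerase Dse (-2.04). Against mesenchyme the same 4 were called lower in tips, from -3.12 for Vcan to -1.30 for Bgn, and the sulfotransferase Chst11 was called higher by 1.31. Between stalks and mesenchyme limma called 0, and 8 had an unadjusted p below 0.05. Of all tested genes, 1.16% were called higher and 4.18% lower in tips against stalks. Against mesenchyme the shares for tips were 4.65% higher and 5.05% lower, and 3.5% were called in stalks against mesenchyme. Dcn is also 1 of the 15 stroma markers. In rat, Vcan was called lower in buds on the first design (-1.51), and Slc35b3, a transporter of the sulfate donor, was called higher on design B, by 1.23. Without the second bud labeling these were -1.61 and 1.03, both still called.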

How the data were processed

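Tissues were compared on Affymetrix arrays, with 2 labelings of 1 pooled RNA per tissue. The authors deposited 4 tables, 1 for mouse and 1 for each rat design, with 1 linear intensity per probe set and array, and per the labels' descriptions 1 ug of RNA was labelled by the manufacturer's procedure. How these were summarised and scaled is not given in the sources used here. Each of these tables was quantile normalised on its own, control probe sets were left out and log2(intensity + 16) was taken. A probe set entered the tests when any tissue mean was at or above the table's median (49.3 for mouse, 111, 118 and 115 for the rat tables), which left 23919, 4616, 4657 and 4648 probe sets. The fits used limma 3.58.1 under R 4.3.3 (lmFit, eBayes with a trend), with all 6 mouse arrays in 1 fit and each rat design in its own, and p-values were adjusted over all tested probe sets by Benjamini-Hochberg. The procedure was first tested on simulated data. A gene was represented by its single-symbol probe set with the highest mean. Every listed gene is named or counted, with values per array for called genes and for the gene of highest signal in each role. Rat names were checked by Entrez identifier, which matched for 38 of 38 probe sets. Members and lists were chosen with earlier results of these data known, so counts over them are descriptions. The alternatives were other normalizations, pseudocounts, filters, moderation, a minimum fold of 1.5, probe set means, a labelling block and leaving out each array. Arrays give no read depth, and the number of arrays limits the precision.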

Additional observations from a re-analysis of the deposited data

Results flagged for a closer look

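For 2 genes, Gpc6 and Hs6st1, the tissues were wholly apart in both species but on opposite sides. On at least 1 rat design every bud array lay on the same side of every mesenchyme array. In mouse, both bud tissues lay wholly on the opposite side of mesenchyme. Separation in rat alone was also seen for other listed genes, such as Agrn and Gpc2. How many of all tested genes lie on opposite sides in this way was not counted. Gpc6 was higher in buds than in mesenchyme on the first rat design by 1.65 and on design C by 0.45, where it did not pass, while both mouse bud tissues lay below mesenchyme, tips by -1.03 and stalks by -0.61. Hs6st1 differed by -0.13 on the first rat design, which did not pass, while mouse tips were above mesenchyme by 1.10 and stalks by 0.32. Without the second rat bud labeling that rat difference was -0.01. On design B the Hs6st1 values of buds and mesenchyme overlapped, with a difference of -0.05. The difference between the species was not tested, since the arrays, stages and dissections differ.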

How the results depend on the processing

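The mouse and rat differences of the heparan sulfate genes were recomputed under 10 other settings and without each array in turn, 1956 values in all, of which 0 reversed a call, 15 lost one and 5 gained one. Sign changes, 88 in number, fell on values that were not called. Of 15 called differences 4 kept their call in every setting run. Averaging all probe sets of a gene reduced the number of called genes to 1 in tips against stalks, 3 in tips against mesenchyme and 0 in stalks against mesenchyme, the averages including probe sets near background or of the opposite direction. With a pseudocount of 1, Hs3st3b1 also passed in stalks against mesenchyme, making 2. With the filter at the 75th percentile Glce and Gpc4 were not tested, leaving 0 called genes on rat designs B and C. Leaving out 1 array gave 4 to 5 called genes in tips against stalks, 6 to 8 in tips against mesenchyme, 1 in stalks against mesenchyme, 1 on the first rat design, 1 on design B and 0 to 1 on design C. Over all probe sets, 1098, 1953 and 663 were called in mouse and 267, 269 and 215 in rat. A pseudocount of 64 gave 671, 1266 and 392 in mouse and 172 on design B. The stricter filter gave 1286 in tips against mesenchyme and 176 on design B, with fewer probe sets tested. A test against 1.5-fold gave 160, 164 and 127 on the rat designs. Leaving out 1 array gave 1065 to 1250, 1938 to 2023 and 648 to 698 in mouse and 243 to 477, 228 to 369 and 77 to 360 in rat. The cause of these shifts was not tested. A replicate block on the labeling number changed no call of a heparan sulfate gene, with 4, 7 and 1 in mouse and 1 on each rat design, and gave 306, 274 and 221 called probe sets on the rat designs. In mouse it gave 1098, 1953 and 663, the same as without it. The block leaves the differences as they are, and every 2-fold probe set already passed the adjusted p, so those mouse counts could not rise with it. At any fold, the mouse probe sets with an adjusted p under 0.05 numbered 10021, 10344 and 5416 with the block, and 6845, 8060 and 3133 without it. Deviations of arrays with the same number correlated at 0.423 to 0.566 in mouse and 0.222 to 0.309 in rat, but with 2 numbers the labels do not say that a number marks a shared day, and the arrays were not treated as paired.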
